A study of Mus musculus with 12 samples.

Results

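CD4+CD8+ double-positive (DP) thymocytes were compared with the average of the 3 other sorted thymocyte subsets, and genes were sought that stood apart in DP cells in the same direction from each of them. The comparison used the 3 DP arrays of 12, against 9 arrays of the other subsets. All cells came from thymi of C57BL/6 mice, were sorted by flow cytometry, received no treatment and were not cultured, and their total RNA was read on Affymetrix mouse expression arrays. The double-negative cells (DN, gated as CD4-CD8-TCRb-), the CD4 single-positive cells (CD4SP, CD4+CD8- and TCRb high) and the CD8 single-positive cells (CD8SP, CD4-CD8+ and TCRb high) were each read on 3 arrays, and the means of these groups entered the comparison with equal weight. The DP gate was set on CD4 and CD8 alone, so it held cells at all levels of TCRb. The number of mice and their ages are not given in the sources used here. Since the labels do not say that replicates came from separate mice, the p-values reflect the spread among these arrays, which may be technical.

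Thymocytes develop from DN cells into DP cells, which then become either CD4SP or CD8SP. At the DP stage, after the burst of division that follows assembly of the pre-T cell receptor, the T cell receptor alpha locus is rearranged by the RAG recombinase, and each cell then depends on recognition of self peptide on major histocompatibility complex (MHC) molecules. Most DP cells die without being selected. They are known for losing responsiveness to IL-7, for low surface MHC class I and for relying on Bcl-xL rather than Bcl-2 for survival.

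Each deposited value is a log value, read here as log2, from which the mean of the 3 DP arrays had been subtracted for that probe set. DP therefore lies at 0 for every gene, each unit of 1 is a 2-fold difference in signal from DP, and no absolute level can be given. The DP arrays hold only their deviations from that mean. Quantile normalization, tried as an alternative, stretches these toward the spread of the other arrays. Calls lost under it, given below, therefore do not show by themselves that a difference is unstable. Probe sets with exactly 1 gene symbol were averaged per gene, which gave 18193 genes. A gene is called DP-high or DP-low where it differed in the same direction from DN, CD4SP and CD8SP and where the largest of the 3 p-values, from limma with Benjamini-Hochberg adjustment over all genes, was under an adjusted 0.05. For each gene the smallest difference is that from the nearest of the other subsets, and it is given ± the standard error of the fit, with its fold. The 3 differences share the 3 DP arrays, so a chance deviation of those arrays enters all of them.

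The subset labels were checked on the genes used for sorting. Cd4 lay between -6.49 and -3.88 on the DN arrays, between -0.76 and -0.52 on the CD4SP arrays and between -9.20 and -8.39 on the CD8SP arrays. Cd8a lay between -4.59 and -2.63 in DN, between -6.84 and -6.35 in CD4SP and between -0.43 and -0.20 in CD8SP, and Cd8b1 between -5.66 and -5.19 in CD4SP and between -0.81 and -0.49 in CD8SP. Each gene was thus low in the subsets gated against its product. Array medians over all probe sets lay between -0.096 and 0.0493, and DN replicate 1 (0.5272) and CD8SP replicate 1 (0.2765) had the lowest of limma's array weights. Markers of other cell types were highest in DN, relative to DP. The mean over 15 myeloid and dendritic markers lay between 2.30 and 3.70 on the DN arrays, lowest on DN replicate 1, against 0.13 to 0.20 in CD4SP and 0.04 to 0.23 in CD8SP, and that of 8 B cell markers between 0.46 and 2.08 in DN and between -0.59 and 0.11 in the single-positive subsets. The mean over 8 NK and innate lymphoid markers lay between 1.66 and 2.94 in DN, between 0.08 and 0.31 in CD4SP and between 1.91 and 2.12 in CD8SP, and that of 4 gamma delta T cell markers between 2.35 and 2.92 in DN and between 0.15 and 0.58 in the other subsets. Erythroid markers (3 genes, -0.67 to 0.24 over the 9 other arrays) and stromal markers (12 genes, 0.01 to 0.60) lay closer to DP. Of these marker genes, Nkg7 and Cd163l1 were DP-low. That is 12.5% of the NK and innate lymphoid and 25% of the gamma delta markers, against 4.4% of all genes. None of the markers was DP-high (also none at an unadjusted p under 0.05). No NK or innate lymphoid marker was called without DP replicate 1 or 2, CD4SP replicate 1 or 3, or CD8SP replicate 2 or 3. Without DN replicate 1 or CD8SP replicate 1, 2 of them were DP-low. With quantile normalization neither Nkg7 nor Cd163l1 was called, and without DN replicate 1, 1 myeloid marker was DP-low. The 9 of 15 myeloid markers lower in DP than the average of the others (18.4% of all genes were) included Camp, Lyz2, S100a8 and S100a9. Since values are relative to DP, it cannot be said which markers were at background in any subset. In these bulk samples, fewer cells of a type and less RNA per cell cannot be told apart.

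DP cells differed from the average of the other subsets at 6757 of the 18193 genes, 3412 higher (18.8% of all genes tested) and 3345 lower (18.4%). For 1240 of these genes the differences from the 3 subsets did not all have the same sign. The same-direction rule called 836 genes DP-high, 4.6% of all genes, and 800 genes DP-low, 4.4% of all genes. Without DP replicate 3 the DP-high count was 554, of which 553 were among the 836, and with quantile normalization the counts were 273 and 181. On all 836 DP-high genes the 3 DP arrays lay above the 9 other arrays, as they did for 1773 (9.75%) of all genes tested. On 795 of the DP-low genes the 3 DP arrays lay below the 9 others, as they did for 1496 (8.22%) of all genes. The calls were made on these same arrays, so the lack of overlap follows largely from the rule and is no separate support. The 5 DP-low genes with overlapping arrays were Adcy7, Ap1m2, Gimap3, Tlr1 and Vcpkmt, in each of which the lowest of the other arrays fell just under the highest DP array (0.14 against 0.15 for Adcy7, 0.88 against 0.89 for Tlr1). The smallest difference was at least 1, or 2-fold, for 184 DP-high and 232 DP-low genes, and at least 2, or 4-fold, for 39 and 52 genes. Its median was 0.58 over DP-high and -0.76 over DP-low genes, and the median difference from the average of the others was 0.83 and -1.11, against -0.001 over all genes. Of the 587 DP-high genes with several probe sets, 506 had all of them higher in DP than in each subset and 14 had 1 or more in the opposite direction, and of 386 such DP-low genes these numbers were 289 and 12. Just inside the threshold lay Fbxl14 (adjusted p = 0.049, smallest difference 0.353) and Ncdn (0.0493, -0.523), and just outside it Nthl1 (0.05, -0.705) and Aftph (0.0503, 0.311). Without DP replicate 3 the DP-high count was 554, and without DN replicate 1 and CD8SP replicate 1 together the counts were 929 and 1047.

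**Figure D1:**
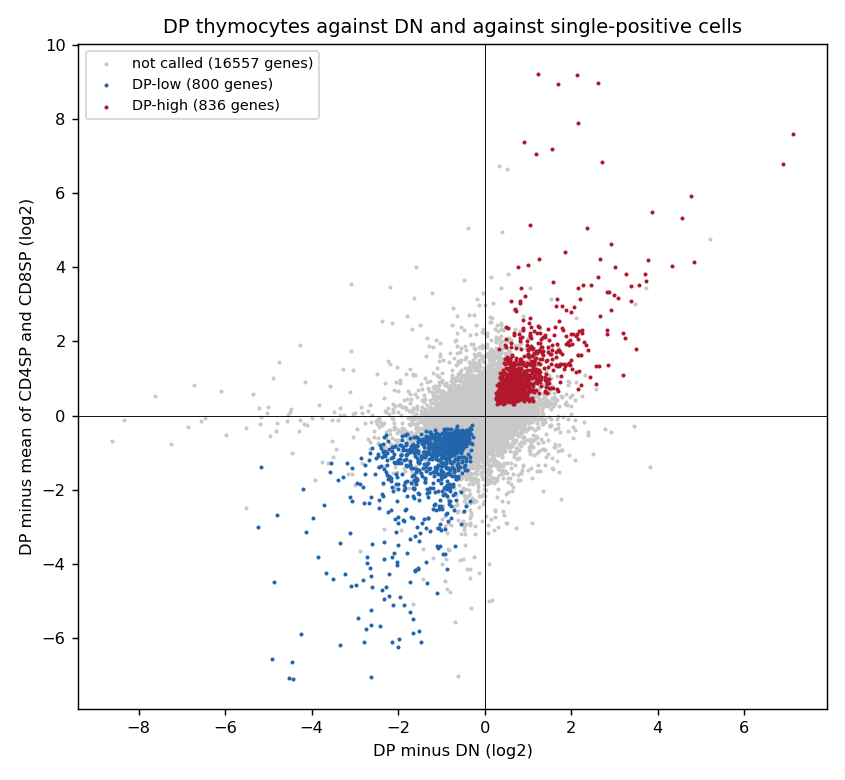
Each point is 1 of 18193 genes, with its difference of DP from DN on the x axis and from the mean of the single-positive subsets on the y axis (both log2); red points are the 836 DP-high and blue points the 800 DP-low genes. Called genes fill the upper right and lower left, and the red points high above the centre are genes closer to DN than to the single-positive cells, Rag1 (1.23 from DN, 9.24 from CD4SP) among them.

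Called genes were also compared between DN and the single-positive subsets, that is, before and after the DP stage. The share that differed was near that of all genes for DP-high and above it for DP-low genes. The genes were called on these same arrays with the same estimates of spread, so a share above that of all genes may follow from the rule. Such a share is no separate result, here or in the comparison of CD4SP with CD8SP below. DN was the nearest subset for 409 of the DP-high genes (48.9%), CD4SP for 361 and CD8SP for 66. Of the DP-high genes, 302 were higher in DN than in the mean of the single-positive subsets, 123 were lower and 411 were not called in that comparison; the 50.8% called compares with 47.1% of all genes. Of the DP-low genes, 245 were higher in DN than in single-positive cells, 258 were lower and 297 were not called, so that 62.9% were called. CD4SP and CD8SP differed for 254 of the DP-high genes, 213 of them higher in CD4SP and 41 higher in CD8SP, and for 191 of the DP-low genes, 58 higher in CD4SP and 133 higher in CD8SP. Over all genes 12.7% were called in that comparison.

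The DP-high gene that stood farthest from its nearest subset was Slc7a11, which encodes xCT, the light chain of the cystine-glutamate antiporter. Its values were -0.17, 0.05 and 0.12 on the DP arrays, -6.80, -7.08 and -6.84 in DN, -6.46, -6.68 and -6.93 in CD4SP, and -6.49, -6.95 and -7.21 in CD8SP. The 9 other arrays thus lay together, far under the DP arrays. The leading genes of both directions were chosen among genes without array overlap, so its absence is no separate result. The smallest difference was 6.69 ± 0.18 (adjusted p = 9.54e-09, limma), a 103-fold difference from CD4SP. Its 2 probe sets both gave the direction, with differences of 4.80 to 5.23 and of 8.59 to 8.73.

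Chrna9, a subunit gene of nicotinic acetylcholine receptors best known from sensory hair cells, followed. On the DN arrays it lay at -3.95, -5.29 and -5.04, in CD4SP at -5.83, -6.00 and -6.25, and in CD8SP at -5.78, -5.78 and -5.99. DN stood nearest to DP, with a difference of 4.76 ± 0.27 (27.1-fold, adjusted p = 3.25e-06). Ccdc153, a coiled-coil protein gene, lay at -5.80 and -6.13 on DN replicates 2 and 3 but at -1.75 on DN replicate 1. Its smallest difference was 4.56 ± 0.89 (adjusted p = 0.00726), and its value in CD4SP was -5.50 ± 0.13 (SD, n = 3).

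The other leading DP-high genes were of varied kinds. Transcription and RNA genes among them were Pou6f1, a POU homeodomain factor (smallest difference 3.77 ± 0.31), and Nron, a noncoding RNA known as a repressor of NFAT (3.59 ± 0.26). Insl5 encodes an insulin-like peptide hormone, lay between -4.07 and -3.14 on the 9 other arrays and differed by 3.27 ± 0.10. Spo11, which makes the DNA breaks of meiotic recombination, lay at -3.01 ± 0.14 (SD, n = 3) in DN, -3.52 ± 0.03 in CD4SP and -4.52 ± 0.15 in CD8SP. Glcci1, named as a glucocorticoid-induced transcript (3.29 ± 0.19), Medag (3.67 ± 0.40), the formin Fmnl2 (3.08 ± 0.10), the metalloprotease Adam12 (3.06 ± 0.08), Gpr162 (2.99 ± 0.18), Tctex1d1 (2.93 ± 0.19), Podxl2 (2.83 ± 0.63) and Nyap1 (2.81 ± 0.10) completed the 15. For Adam12 the 2 probe sets differed in size, at 1.53 to 1.72 and 4.53 to 5.26. Podxl2 spread widely, from -4.08 to -2.02 in DN and from -4.66 to -2.72 in CD8SP. Its adjusted p of 0.0155 became 0.0518 without DN replicate 2, 0.0537 without DP replicate 2 and 0.0557 without DP replicate 3.

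**Figure D2:**
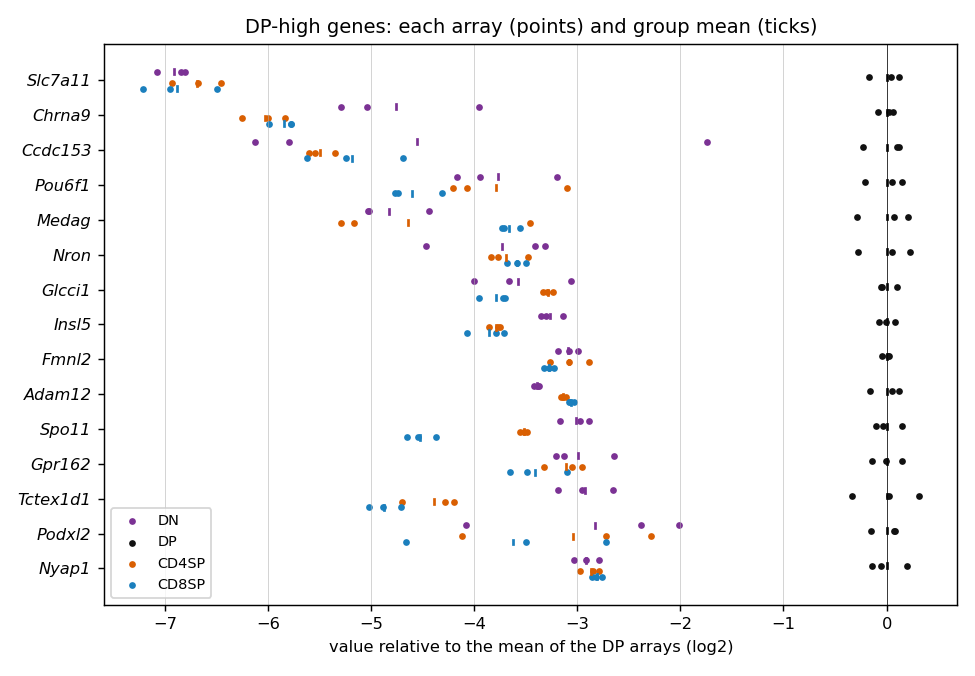
Values of the 15 leading DP-high genes on each array (points, coloured by subset) and the group means (ticks), as log2 differences from the DP mean. The DP arrays sit around 0 and all other arrays lie far to the left, with the DN point of Ccdc153 at -1.75 nearest to them.

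The sequence before the start of Slc7a11 and Chrna9 is shown because these genes stood farthest apart in DP. RefSeq's promoter table (GRCm38.p6) gives the 250 bases before the start at chr3:50443614-50443863 on the minus strand for Slc7a11 and at chr5:65966874-65967123 on the plus strand for Chrna9, written 5′ to 3′ with motif letters in capitals.
Slc7a11: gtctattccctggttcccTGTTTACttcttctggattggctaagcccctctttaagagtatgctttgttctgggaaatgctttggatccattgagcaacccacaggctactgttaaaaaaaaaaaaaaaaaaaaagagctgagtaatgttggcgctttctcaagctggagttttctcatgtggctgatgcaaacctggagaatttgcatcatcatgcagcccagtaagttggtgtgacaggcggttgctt
Chrna9: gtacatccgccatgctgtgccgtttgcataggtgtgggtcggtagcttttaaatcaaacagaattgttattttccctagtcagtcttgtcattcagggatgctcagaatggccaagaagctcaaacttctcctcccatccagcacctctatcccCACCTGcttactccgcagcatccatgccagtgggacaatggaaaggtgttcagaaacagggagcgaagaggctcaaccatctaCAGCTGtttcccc
The capitals mark the letters TGTTTAC, the reverse complement of the forkhead motif GTAAACA, in Slc7a11, and CACCTG and CAGCTG, which are E-box letters, in Chrna9. The motifs were searched on both strands, and no binding to them was measured here. Over the 300-base windows of the table, which run 50 bases past the start, CAGCTG was held by 18.13% of 921 promoters of DP-high genes, by 14.43% of 811 of DP-low genes and by 16.36% of all 18109 promoters. CAGGTG was held by 17.48%, 20.96% and 20.02%, AGGTCA, the core letters of sites of the ROR family, by 12.16%, 12.21% and 14.26%, GTAAACA by 3.149%, 2.096% and 2.976%, and the ETS letters TTCCGG by 24.65%, 20.96% and 20.93%.

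Genes known from the DP stage were mostly DP-high. Of 14 measured members of that list, 10 were DP-high (71.4%, against 4.6% of all genes) and none DP-low, with a median difference from the average of the others of 2.10. The list was drawn from textbook knowledge with earlier results of these data known. Where this or a later pathway list had no call by limma in a direction, the count at an unadjusted p under 0.05 was also 0, except for 1 gene higher in DP in each of the MHC class I, ribosome biogenesis and S phase and mitosis lists. Rag1 and Rag2, the recombinase subunits, were far lower in single-positive cells, with Rag1 at -9.10, -9.27 and -9.34 in CD4SP and -9.01, -9.45 and -9.16 in CD8SP. In DN, Rag1 lay at -1.15, -1.40 and -1.15, so that its smallest difference was 1.23 ± 0.12 (2.35-fold, adjusted p = 8.22e-05). Rag2 differed least from DN too, by 2.14 ± 0.23. Themis, an adaptor needed for positive selection, showed a more even pattern, at -1.88 ± 0.15 in DN, -2.25 ± 0.03 in CD4SP and -2.02 ± 0.08 in CD8SP (SD, n = 3; adjusted p = 1.27e-06). Plxnd1, the semaphorin receptor of DP cells, had a smallest difference of 2.63 ± 0.23, Ets2 of 1.85, the E protein Tcf12 of 0.98, Arpp21 of 1.19, the chemokine receptor Ccr9 of 1.16 and the lipid-presenting Cd1d1 of 0.45. The 4 members that were not called were Dntt, Satb1, Cd24a and Ptcra. Dntt (terminal transferase) lay at -0.39 in DN and -4.98 in CD4SP, and Ptcra (the pre-T cell receptor alpha chain) at 1.22 in DN and -3.46 in CD4SP.

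Among 13 genes of V(D)J recombination and end joining, 5 were DP-high (38.5%, against 4.6% of all genes) and 2 DP-low (15.4%, against 4.4%). Besides the recombinase genes, Lig4, the ligase of end joining, was DP-high by 0.94 ± 0.12 and lay at -2.93 ± 0.11 in CD4SP and -3.50 ± 0.21 in CD8SP (SD, n = 3). The Ku subunit genes went opposite ways: Xrcc6 (Ku70) was DP-high with a smallest difference of 0.50, and Xrcc5 (Ku80) was DP-low at 1.52 ± 0.07 in DN, 0.57 ± 0.06 in CD4SP and 0.72 ± 0.24 in CD8SP. Nhej1 (XLF) was DP-high by 0.39, and the DNA damage kinase gene Atm was DP-low with a smallest difference of -0.80 ± 0.08 (adjusted p = 6.89e-05). The DP-high count of this list was 3 without DN replicate 2, DP replicate 1 or DP replicate 3, and also with quantile normalization, which left 1 DP-low gene, or when each gene was read from its highest probe set by mean.

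Of 28 transcription factors of the T lineage, 6 were DP-high (21.4%, against 4.6% of all genes) and 2 DP-low (7.1%, against 4.4%). The DP-high factors were Tcf12, Ets2, Nfatc3, Myb, Gfi1 and Klf3. Nfatc3, a calcium-responsive factor, lay at -1.57 ± 0.20 in DN, -1.83 ± 0.09 in CD4SP and -2.0 ± 0.03 in CD8SP (SD, n = 3; adjusted p = 6.81e-06). Myb (smallest difference 0.78 ± 0.10) and the repressor Gfi1 (0.72 ± 0.14) were nearest to DN and lay between -4.09 and -2.40 on the single-positive arrays. Runx3, the silencer of Cd4 in the CD8 lineage, was DP-low at 1.0 in DN, 1.13 in CD4SP and 1.96 in CD8SP. Without DN replicate 1, 4 of these factors were DP-low, and with quantile normalization 1 was.

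In the T cell receptor complex and its proximal signalling, 2 of 19 genes were DP-high (10.5%, against 4.6% of all genes) and none DP-low. The DP-high genes were Themis and Trat1 (0.98, adjusted p = 8.33e-05). Without DN replicate 1 and CD8SP replicate 1 together, 4 were DP-high. The CD3 subunit genes were not called, with Cd3e at -0.73 in DN, 0.00 in CD4SP and -0.12 in CD8SP. Of 19 genes induced by T cell receptor signalling, none was DP-high and 4 were DP-low (21.05%, against 4.4% of all genes). The median difference of the 19 from the average of the others was -1.12. Against that average alone, 16 of the 19 were lower in DP, as were 18.4% of all genes. The called genes were Myc (at 3.50, 3.76 and 3.86 in DN, 2.06, 2.11 and 2.39 in CD4SP and 2.25, 2.78 and 2.86 in CD8SP), Itm2a (smallest difference -0.88 ± 0.10), Nr4a2 (-0.76 ± 0.10) and Nr4a3 (-0.56). Nr4a3 had an adjusted p of 0.016 and lost the call without DN replicate 2 (0.069), DN replicate 3 (0.0638), DP replicate 1 (0.0583) or DP replicate 3 (0.0699). Probe sets disagreed for both Nr4a genes. For Nr4a3, 1 lay between -3.76 and -1.48 and another between -0.26 and 0.08. For Nr4a2, 1 lay between -3.1 and -2.24 and another between -0.19 and 0.09. With quantile normalization, or from each gene's least variable probe set, 2 of the 19 were DP-low. Some other members lay below DP in DN and above it in single-positive cells. Cd69 lay at -0.50 in DN, 2.32 in CD4SP and 1.94 in CD8SP, and Egr1 at -1.22, 1.80 and 1.22.

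Il7r, the IL-7 receptor alpha chain, stood farthest below its nearest subset. It lay at 0.11, -0.70 and 0.59 on the DP arrays, at 4.06, 5.38 and 5.31 in DN, at 7.11, 7.25 and 7.23 in CD4SP and at 6.00, 6.03 and 5.94 in CD8SP. The DP arrays were thus all well under the lowest DN array, and CD4SP was the highest subset. The smallest difference was -4.92 ± 0.36 (30.2-fold, adjusted p = 1.34e-05), and its 2 probe sets differed by -4.73 and -5.11 from DN. The 250 bases before its start in RefSeq (GRCm38.p6, chr15:9529877-9530126, minus strand), shown as the promoter side of the leading DP-low gene, held none of the motifs searched above and no CACGTG, the E-box letters searched further on.
Il7r: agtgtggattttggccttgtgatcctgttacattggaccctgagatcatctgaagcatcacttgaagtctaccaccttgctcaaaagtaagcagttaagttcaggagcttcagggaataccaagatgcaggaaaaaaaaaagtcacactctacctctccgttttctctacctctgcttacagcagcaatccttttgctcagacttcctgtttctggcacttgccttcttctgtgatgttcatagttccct
No capitals are marked in this sequence.

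Smad7, an inhibitor of TGF-beta signalling, lay at 3.77, 4.83 and 4.96 in DN and between 6.97 and 7.32 in single-positive cells, with a smallest difference of -4.52 ± 0.36. Ccnd2 (cyclin D2) differed by -4.45 ± 0.31 at the least, and each of its 7 probe sets was lower in DP than in each other subset. Ctss, the lysosomal protease cathepsin S, lay at 3.10, 5.21 and 4.97 in DN, 7.13 ± 0.04 in CD4SP and 7.08 ± 0.34 in CD8SP (SD, n = 3). Sema4a (-4.25 ± 0.31), the G protein regulator Rgs1 (-3.67 ± 0.50), the NADPH oxidase subunit gene Ncf4 (-3.50 ± 0.41), Igfbp4 (-3.35 ± 0.37), the actin-capping Capg (-3.22 ± 0.34), Calhm6 (-3.10 ± 0.22), Ms4a4c (-2.98 ± 0.47), S100a6 (-2.88 ± 0.64), Cd200 (-2.82 ± 0.28), Ifit3 (-2.80 ± 0.45) and Lfng, a glycosyltransferase that modifies Notch (-2.75 ± 0.34), followed. S100a6, whose DP values spread from -1.29 to 0.79, had an adjusted p of 0.0159, which became 0.0543 without DP replicate 1 and 0.0573 without CD8SP replicate 1. For all of these 15 genes DN replicate 1 was the lowest DN array, as it was for the myeloid and NK marker means given above, and the part of those markers in the DN values was not tested. In CD4SP these genes lay between 3.13 and 7.25, values that do not bear on their differences from DN.

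**Figure D3:**
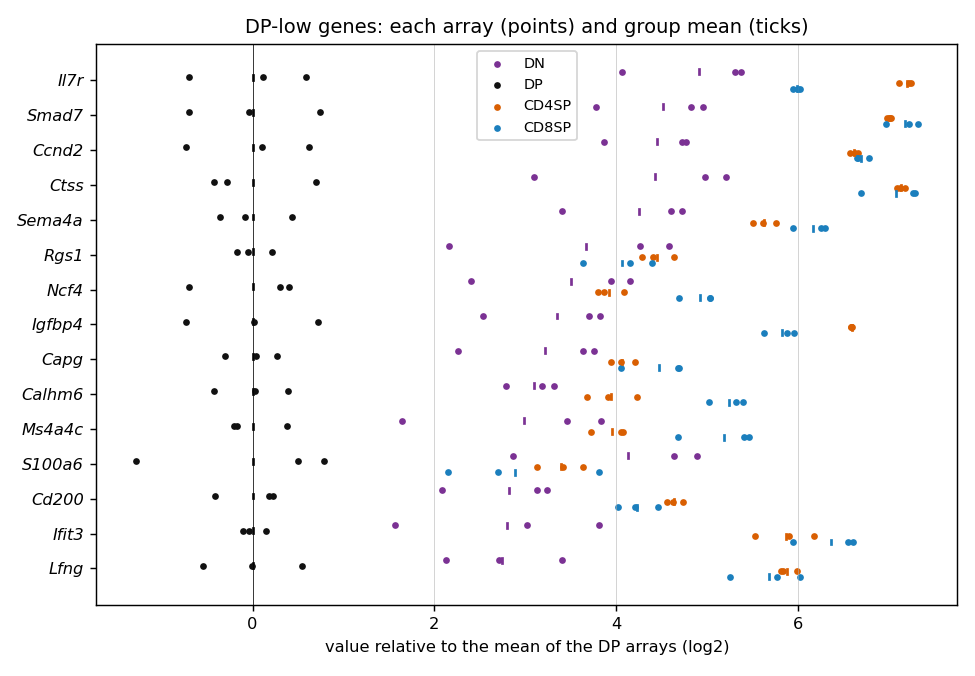
Values of the 15 leading DP-low genes on each array (points, coloured by subset) and the group means (ticks), as log2 differences from the DP mean. The DP arrays sit between -1.29 and 0.79, the DN arrays start at 1.56 and the single-positive arrays lie mostly farther right.

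Cytokine receptor chains moved both ways. Of 18, 3 were DP-low (16.7%, against 4.4% of all genes), namely Il7r, Il2rb and Il18r1. A further 2 were DP-high (11.1%, against 4.6%), namely Ifngr1 and Il21r. Il2rb, the beta chain shared by the IL-2 and IL-15 receptors, lay at 1.19, 2.45 and 2.66 in DN, 3.06 ± 0.16 in CD4SP and 4.36 ± 0.10 in CD8SP (SD, n = 3). Ifngr1, the ligand-binding chain for interferon gamma, was DP-high by 1.02 ± 0.12 (adjusted p = 0.000329) and lay at -2.57 in CD4SP and -2.44 in CD8SP, while Ifngr2, its partner, was not called and lay at -0.72 in DN, 1.40 in CD4SP and 0.65 in CD8SP. Of 16 JAK, STAT and SOCS genes, 2 were DP-low and 2 DP-high (12.5% each, against 4.4% and 4.6% of all genes). The receptor-bound kinase gene Jak3 (-0.77) and Cish, a feedback inhibitor induced by STAT5 (-1.87 ± 0.20), were lower in DP, and Socs1, an inhibitor of cytokine signalling, was higher, at -1.68 ± 0.06 in DN, -1.18 ± 0.21 in CD4SP and -1.48 ± 0.18 in CD8SP (SD, n = 3; adjusted p = 0.000259). The other DP-high gene, Pias1 (0.33, adjusted p = 0.017), was not called without DP replicate 3 (0.0851), CD4SP replicate 1 (0.0595) or CD4SP replicate 2 (0.0698), which left 1 DP-high gene. With quantile normalization 1 receptor chain was DP-low and none DP-high, and of the JAK, STAT and SOCS genes 1 was DP-high and none DP-low.

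Of 14 maturation and egress genes, 4 were DP-low (28.6%, against 4.4% of all genes) and none DP-high. In DP, 12 of the 14 were lower than the average of the others, as were 18.4% of all genes. Klf2, a factor that drives the exit programme, lay at 0.78, 2.06 and 2.12 in DN and between 5.29 and 5.74 on the single-positive arrays, and its smallest difference was -1.65 ± 0.31 (adjusted p = 0.00555). Samhd1 (-1.35), Ms4a6b (-1.25) and Ms4a4b (-1.11) were the others. S1pr1, the egress receptor, and Ccr7, the receptor for medullary chemokines, lay at 0.81 and 0.62 in DN and at 4.88 and 7.23 in CD4SP, and were not called. Without DN replicate 1, in which the list mean was -0.39 against 0.61 and 0.68 in the other DN arrays, 9 of the 14 were DP-low. With quantile normalization none of the 14 was DP-low, and the adjusted p of Klf2 was 0.235. Ms4a4b had an adjusted p of 0.0254, and of 0.0603 to 0.0963 without DN replicate 2, DN replicate 3 or any 1 DP array.

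Among 14 chemokine and lipid guidance receptors, Ccr9 was DP-high and Ccr8, Gpr183, Cxcr6 and Cxcr3 were DP-low. These shares were 7.1% DP-high and 28.6% DP-low, against 4.6% and 4.4% of all genes. Ccr9, which binds the thymic chemokine CCL25, lay at -2.61, -2.72 and -2.37 in DN, -1.54 ± 0.20 in CD4SP and -1.16 ± 0.13 in CD8SP (SD, n = 3). Gpr183, the receptor for oxysterols, lay at 1.69 in DN, 3.57 in CD4SP and 1.92 in CD8SP, and Ccr8 at 2.34, 6.13 and 3.80. Cxcr6 lay at 0.53, 2.89 and 3.04 in DN, 2.19 in CD4SP and 5.46 in CD8SP, with an adjusted p of 0.0358. The DP-low count was 2 without any 1 of 10 arrays (DN replicates 2 and 3, the DP arrays, the CD4SP arrays and CD8SP replicates 2 and 3), and 7 without DN replicate 1 and CD8SP replicate 1 together. With quantile normalization 1 was DP-low. Cxcr4 was near DN (-0.88) and lower in single-positive cells (-3.25 in CD4SP, -2.12 in CD8SP), and was not called.

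The BCL2 family held an opposite pair. Bcl2l1, which encodes Bcl-xL, was DP-high, at -2.11, -2.37 and -2.29 in DN, -1.71, -1.89 and -1.77 in CD4SP and -3.06, -2.49 and -2.47 in CD8SP, with a smallest difference of 1.79 ± 0.15 (3.46-fold, adjusted p = 3.06e-05). Bcl2 was DP-low, at 1.56, 1.90 and 1.89 in DN, 4.03, 3.68 and 3.50 in CD4SP and 3.86, 3.58 and 3.68 in CD8SP, with a smallest difference of -1.78 ± 0.14 (3.44-fold, adjusted p = 2.37e-05). For both genes the DP arrays lay apart from all 9 others, and all probe sets (4 and 5) gave the direction. The other calls among the 13 members were Bcl2l2 (DP-low, -0.57, adjusted p = 0.024) and the pro-apoptotic Bmf (DP-high, 0.57, adjusted p = 0.0275). Calls in each direction made up 15.4% of the list, against 4.6% (DP-high) and 4.4% (DP-low) of all genes. Bmf rested on 1 of 3 probe sets (1.31 to 2.78, against -0.02 to 0.43) and was not called without DN replicate 1 or 2, DP replicate 1 or 3, or CD8SP replicate 1 or 2, and Bcl2l2 was not called without DN replicate 2 or 3 or DP replicate 1 or 2, each leaving 1 call in that direction. With quantile normalization 1 member was DP-high and 1 DP-low.

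MHC class I genes were lower in DP. Of 15 members of the pathway, 10 were DP-low (66.7%, against 4.4% of all genes), none was DP-high, and the median difference from the average of the others was -1.40. The heavy chain gene H2-K1 lay at 0.02, -0.11 and 0.09 in DP, 1.44, 2.32 and 2.33 in DN, 3.87, 4.0 and 3.89 in CD4SP and 3.89, 4.12 and 4.02 in CD8SP, with a smallest difference of -2.03 ± 0.20 (4.09-fold, adjusted p = 8.52e-05). H2-K1 shares near-identical sequence with other class I genes, so the array may not keep them apart. The other called members were H2-D1 (-1.05), the light chain gene B2m (-0.92), the immunoproteasome genes Psmb9 (-0.99), Psmb10 (-1.39) and Psme1 (-0.85), the peptide trimmer Erap1 (-1.12), the chaperones Calr (-0.79) and Pdia3 (-0.39), and Nlrc5. Nlrc5, the transactivator of class I genes, lay at 1.24, 2.34 and 2.04 in DN and between 5.04 and 5.25 on the single-positive arrays. Tap1, Tap2, Tapbp, Psmb8 and Canx were not called. Tap2, a subunit of the peptide transporter, lay at -0.37 in DN, -0.61 in CD4SP and -0.89 in CD8SP, and 1 member was DP-high without CD8SP replicate 1 or CD8SP replicate 3. With quantile normalization 7 members were DP-low.

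Of 21 interferon-stimulated genes, 12 were DP-low (57.1%, against 4.4% of all genes) and none DP-high, with a median difference of -2.01. Bst2 (tetherin) lay at 1.79 ± 0.16 in DN, 1.57 ± 0.16 in CD4SP and 1.95 ± 0.26 in CD8SP (SD, n = 3; adjusted p = 5.49e-05). Most others were higher in single-positive cells than in DN, such as Ifit3, at 1.56, 3.02 and 3.81 in DN, 5.87 ± 0.33 in CD4SP and 6.37 ± 0.37 in CD8SP. The factor Irf1 (-0.96 at the least), the GTPase genes Irgm1 (-1.32), Gbp3 (-1.45) and Ifi47 (-0.98), the RNA sensors Oas1a (-1.51) and Oasl2 (-2.22), Ifit1 (-2.0), Iigp1 (-1.54), Usp18 (-1.0) and Ifi35 (-0.82) were also DP-low. The list mean was 0.47, 1.30 and 1.33 on the DN arrays and between 2.48 and 3.02 on the single-positive arrays. In DN it was lowest on the array with the lowest myeloid marker mean, and the part of other cell types in the DN values was not tested. With quantile normalization 7 interferon-stimulated genes were DP-low, and 18 were in the fit with an indicator for arrays numbered 1. Of the 8 Gimap genes, GTPases of lymphocyte survival, Gimap4 (-2.63, adjusted p = 0.0107) and Gimap3 (-1.66, adjusted p = 0.039) were DP-low. That is 25%, against 4.4% of all genes. Gimap3 lost its call without any 1 of the arrays other than DN replicate 1 (adjusted p from 0.0551 to 0.142), which left 1 call, and neither was called with quantile normalization.

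**Figure D4:**
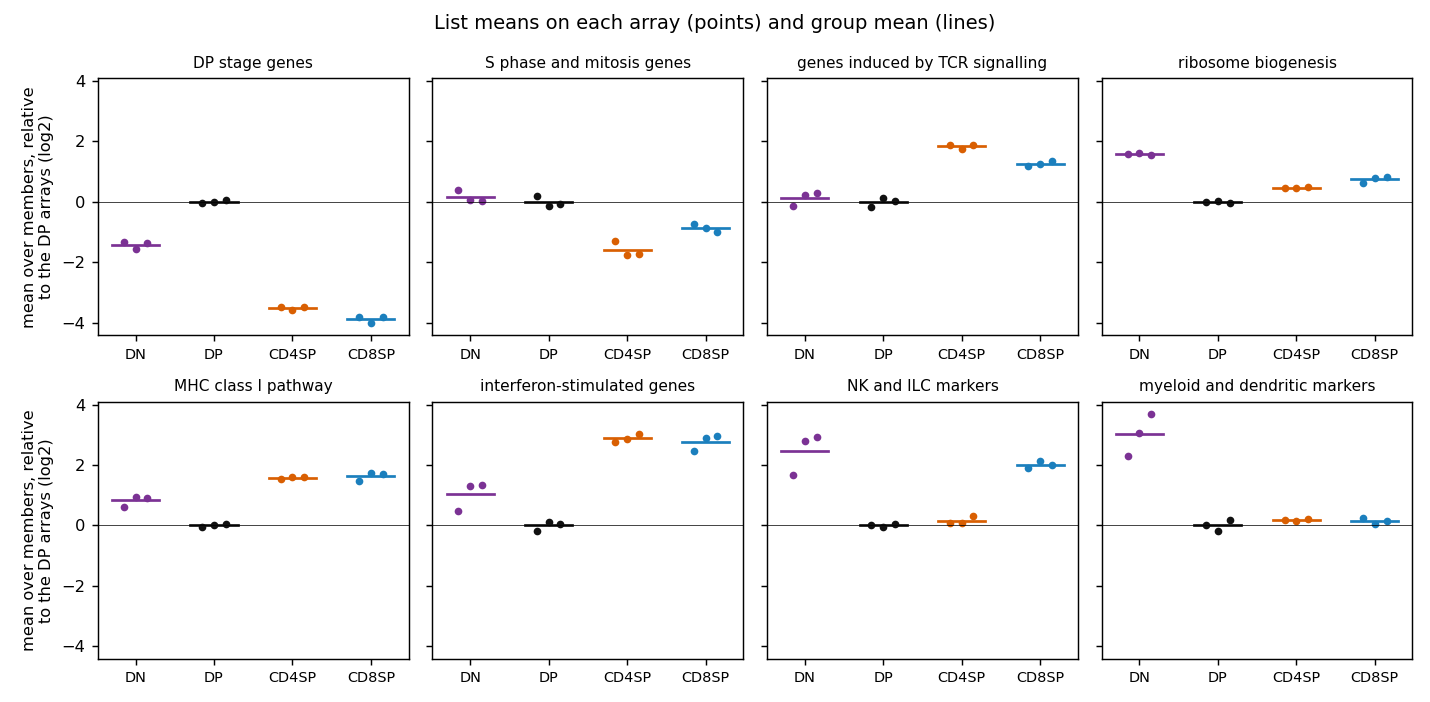
Mean over the measured members of 6 gene lists and 2 marker lists on each array (points) and for each subset (lines), as log2 differences from the DP mean. DP lies below all other subsets for the MHC class I, interferon-stimulated and ribosome biogenesis lists and above them for the DP stage genes, while S phase and mitosis genes were near DP in DN and lower in single-positive cells.

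Of 21 NF-kappaB and AP-1 genes, 4 were DP-low (19.05%, against 4.4% of all genes) and 1 DP-high (4.8%, near the 4.6% of all genes). Tnfaip3, the deubiquitinase A20 that restrains NF-kappaB, was DP-high, with a smallest difference of 0.96 (adjusted p = 0.000566). Bcl3 (-1.73), Fosl2 (-1.18), Batf (-1.15) and Bach2 (-1.10) were DP-low. The call of Fosl2 rested on 1 of its 2 probe sets, at -5.07 to -2.47, while the other lay between -0.13 and 0.12. With quantile normalization none of the 21 was DP-low. Of 14 costimulatory and inhibitory receptors, 4 were DP-low (28.6%, against 4.4%) and 1 DP-high (7.1%, against 4.6%). Btla lay at 1.25, 2.89 and 2.71 in DN, 5.05 in CD4SP and 4.22 in CD8SP, and Pdcd1 (PD-1) at 2.26, 3.11 and 3.10 in DN, 2.21 in CD4SP and 1.66 in CD8SP. Tnfrsf9 (-1.73) and Tnfrsf1b (-0.63) were the others, and 1 of the 3 Tnfrsf9 probe sets went the opposite way (0.24 to 0.61). Lag3, an inhibitory receptor, was DP-high by 0.72 ± 0.15 (adjusted p = 0.012), and 2 receptors were DP-high without DN replicate 1. With quantile normalization 2 receptors were DP-low.

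Among 14 integrin and adhesion genes, Itgae (-1.67) and Itgb3 (-2.37) were DP-low and Icam2 (0.74) was DP-high. These shares were 14.3% DP-low and 7.1% DP-high, against 4.4% and 4.6% of all genes. Itgae, the CD103 chain, lay at 1.36, 3.21 and 3.27 in DN, 1.67 in CD4SP and 7.60 in CD8SP. Without DN replicate 1, 5 genes were DP-low, without any 1 DP or CD4SP array 1 was, and without CD8SP replicate 1, 2 were DP-high. Of 18 S100, annexin and cytoskeletal genes, S100a6 and Ahnak (-1.0) were DP-low (11.1%, against 4.4% of all genes) and none was DP-high. The DP-low count of this list was 5 without DN replicate 1, and 1 without DP replicate 1 or CD8SP replicate 1 or with quantile normalization. None of the integrin and adhesion genes was called with quantile normalization.

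Ribosome biogenesis genes were lower in DP. Of 20, 13 were DP-low (65.0%, against 4.4% of all genes) and none was DP-high. Against the average of the others 19 of the 20 were lower, as were 18.4% of all genes, and the median of the 20 was -0.99. With quantile normalization 4 of the 20 were DP-low. They were highest in DN, where the list mean lay between 1.55 and 1.62, against between 0.45 and 0.49 in CD4SP and between 0.61 and 0.81 in CD8SP. Polr1b, a core subunit of RNA polymerase I, lay at 2.45, 2.42 and 2.45 in DN, 1.38, 1.35 and 1.10 in CD4SP and 1.44, 1.65 and 1.42 in CD8SP (smallest difference -1.28 ± 0.10, adjusted p = 1.75e-05). Rrp1b lay at 1.82 ± 0.01 in DN, 1.24 ± 0.08 in CD4SP and 1.46 ± 0.05 in CD8SP (SD, n = 3; adjusted p = 3.25e-06), and Mybbp1a at 2.36, 1.03 and 1.20. The methyltransferase Fbl (-0.92), the nucleolar chaperone Npm1 (-0.41), the pseudouridine synthase Dkc1 (-0.56), Nhp2 (-0.55), Gnl3 (-0.79), Rrs1 (-0.67), Rrp9 (-0.66), Nop2 (-0.62), Ppan (-0.53) and Polr1a (-0.77) were also called. Wdr12 went the other way in sign, at -0.39 in DN, -1.41 in CD4SP and -1.68 in CD8SP, and 1 member was DP-high without DP replicate 1. Of 13 translation factors, Eef1b2 (-0.93) and Eif1a (-0.49, adjusted p = 0.0352) were DP-low (15.4%, against 4.4% of all genes). Without any 1 of DN replicates 2 and 3, the DP arrays or the CD4SP arrays, or with quantile normalization, 1 was DP-low.

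The E-box letters CACGTG, known as a site of Myc, were searched in the same promoters because Myc and these genes were both DP-low. In the 300-base windows they were held by 7.492% of DP-high, 13.81% of DP-low and 8.725% of all promoters, and in the 250 bases before the start alone by 6.732%, 9.248% and 7.383%. Of 16 ribosome biogenesis genes with a promoter in the table, 3 held them (18.75%), 2 of these being DP-low, against 10.2% of all genes. Other lists held them in larger shares, namely the translation factors (4 of 9, 44.44%), the G1 regulators (33.33%), the cholesterol genes (4 of 14, 28.57%), the MHC class I pathway (23.08%) and the costimulatory and inhibitory receptors (22.22%). A window of 30 bases around the letters in Nop2 (GRCm38.p6, chr6:125131811-125131840, plus strand), an rRNA methyltransferase gene, is shown with the motif in capitals.
Nop2: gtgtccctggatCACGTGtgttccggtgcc
The motif begins at position -60 from the start, and no binding was measured here.

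Cell cycle genes were divided. None of 23 S phase and mitosis genes was called in either direction by limma (1 was higher at an unadjusted p under 0.05). Against the average of the others 16 were higher in DP, as were 18.8% of all genes, and the median of the 23 was 1.0. Their mean lay between 0.03 and 0.39 on the DN arrays, between -0.12 and 0.21 in DP, between -1.75 and -1.28 in CD4SP and between -0.99 and -0.74 in CD8SP, so that DN and DP overlapped. Mki67 lay at -0.46 in DN, -2.27 in CD4SP and -1.54 in CD8SP. Without CD8SP replicate 1, 1 of these genes was DP-high, and 2 were in the fit with an indicator for arrays numbered 1. Of 13 G1 regulators, by contrast, 5 were DP-high (38.5%, against 4.6% of all genes) and 2 DP-low (15.4%, against 4.4%). The D cyclins went opposite ways, Ccnd2 being DP-low as given above and Ccnd3 (cyclin D3) DP-high at -1.86, -2.53 and -2.31 in DN, -0.90, -1.59 and -1.73 in CD4SP and -1.72, -2.03 and -1.84 in CD8SP (smallest difference 1.41 ± 0.22, adjusted p = 0.00202). The inhibitors of cyclin-dependent kinases Cdkn1b (0.77 ± 0.17), Cdkn2c (1.13) and Cdkn2d (0.70 ± 0.12) and the retinoblastoma gene Rb1 (0.44) were also DP-high, and Myc was DP-low. The DP-high count of the G1 regulators was 3 without DP replicate 3 or when each gene was read from its highest probe set by mean, and with quantile normalization 1 was DP-high and 1 DP-low.

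Of 15 glycolysis genes, Aldoa, Pgam1, Pkm and Ldha were DP-low (26.7%, against 4.4% of all genes) and none DP-high. Aldoa (aldolase A) lay at 1.37 ± 0.07 in DN, 1.17 ± 0.01 in CD4SP and 1.08 ± 0.09 in CD8SP (SD, n = 3; adjusted p = 1.95e-05), and the smallest differences of the others were -0.64, -0.59 and -0.60. Of 17 cholesterol genes, Mvd was DP-low (-0.49, adjusted p = 0.00501) and none DP-high. The DP-low share of 5.9% was near the 4.4% of all genes. Amino acid transporters moved both ways, with 4 of 12 DP-high (33.3%, against 4.6% of all genes) and 3 DP-low (25%, against 4.4%). Slc6a19, a transporter of neutral amino acids, was DP-high and lay between -5.06 and -3.41 in DN, -6.45 and -5.16 in CD4SP and -3.04 and -1.56 in CD8SP (smallest difference 2.22 ± 0.50, adjusted p = 0.0172). Slc38a2 (0.77) and Slc43a1 (0.82) were DP-high as well. Slc7a5, the light chain of the leucine transporter LAT1, was DP-low at 2.50, 2.53 and 2.37 in DN, 0.78, 0.84 and 1.01 in CD4SP and 1.26, 1.30 and 1.39 in CD8SP, in contrast to Slc7a11. Both pair with the heavy chain Slc3a2, which was not called and lay at 0.56 in DN, 0.04 in CD4SP and 0.34 in CD8SP. Slc7a1 (-0.55) and Slc36a4 (-0.28, adjusted p = 0.0478) were the other DP-low genes, and Slc36a4 was not called without any 1 of 10 arrays (all but CD4SP replicate 1 and CD8SP replicate 1). With quantile normalization 1 glycolysis gene and no cholesterol gene was DP-low, and 2 amino acid transporters were DP-high and none DP-low.

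**Figure D5:**
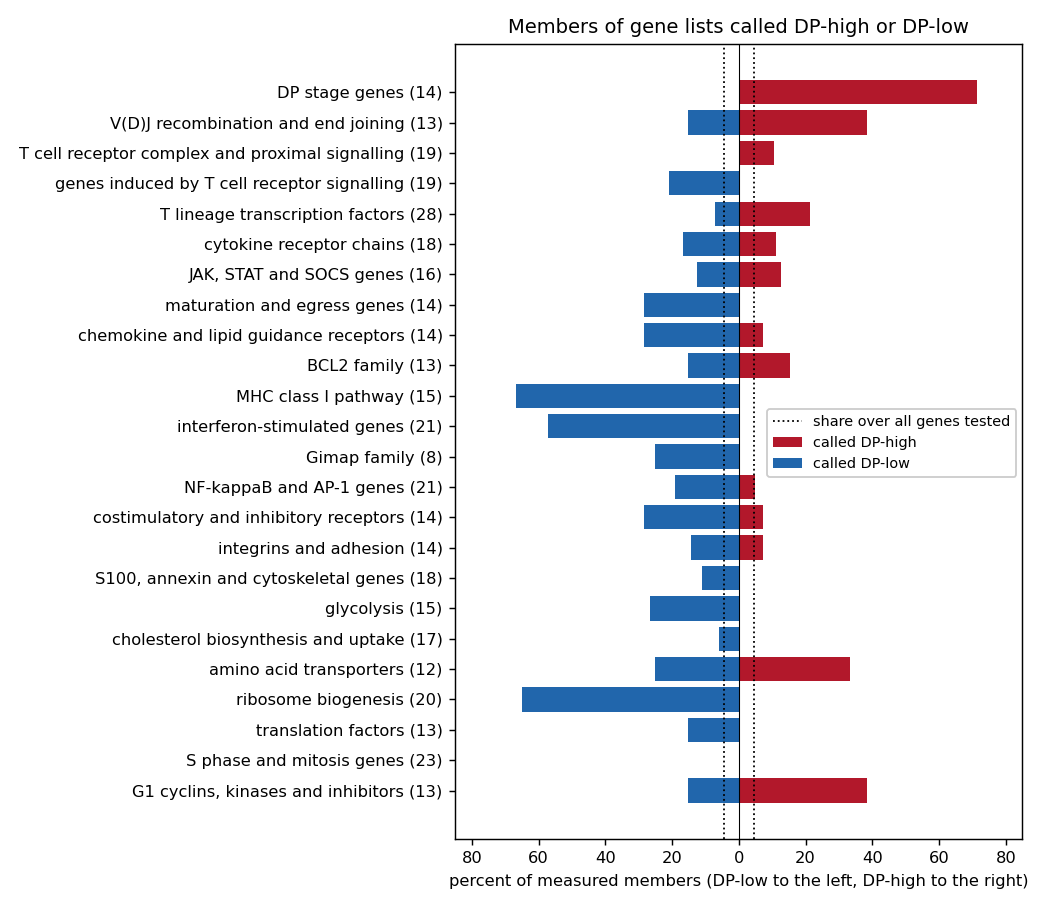
Share of the measured members of each gene list called DP-low (blue, to the left) or DP-high (red, to the right), in percent, with the number of measured members in brackets and dotted lines at the shares over all genes tested (4.4% and 4.6%). DP stage genes reach 71.4% DP-high, MHC class I and ribosome biogenesis genes reach 66.7% and 65.0% DP-low, and S phase and mitosis genes have no bar.

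Of 14 immediate early and heat shock genes, which can mark handling of cells, Btg2 was DP-high (1.20 ± 0.16, adjusted p = 0.000566). That is 7.1%, against 4.6% of all genes. None was DP-low (none at an unadjusted p under 0.05), and the list mean lay between -0.25 and -0.12 in DN, 0.16 and 0.62 in CD4SP and 0.03 and 0.19 in CD8SP. Among 10 markers of DN progenitors, Il7r and the Notch target Dtx1 (-1.25) were DP-low (20%, against 4.4% of all genes). Without DN replicate 1 there were 5. Of 7 markers of regulatory T cells, Ikzf4 (-1.30) was DP-low (14.3%, against 4.4% of all genes). Without DN replicate 2, DP replicate 1, DP replicate 3 or CD8SP replicate 1, 2 of the 7 were DP-low, and none was with quantile normalization. The regulatory marker mean lay between 2.26 and 2.39 in CD4SP, 1.08 and 1.18 in CD8SP and 0.80 and 1.17 in DN, while Foxp3, their defining gene, lay within 0.49 of DP in each subset.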

How the data were processed

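The deposited table holds the authors' log values, read here as log2 since no source names the base, for each probe set on 12 arrays. The submitters' processing notes list MAS5, with no role stated. Of 45101 probe sets, 34958 had 1 gene symbol in the platform annotation, 932 had several and 9211 had none listed. Control probe sets (64) were not used. RefSeq's gene table held 34741 of the 34945 probe sets used, and 0 symbols changed. Genes were summarised by averaging probe sets (9183 genes had 1, 9010 several). In each probe set the mean of the DP arrays is 0 (largest absolute mean 1.27e-06), so signal over background cannot be read and dim probe sets were not filtered. The number of arrays limits the precision.

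Group means of the 4 subsets were fitted over all arrays in limma 3.58.1 under R 4.3.3 (eBayes without trend), with two-sided p-values. The contrasts were DP minus each subset, DP minus the average of the 3, DN minus the mean of CD4SP and CD8SP, and CD4SP minus CD8SP. For the same-direction rule a gene took the largest of its 3 p-values, or 1 where signs differed, before Benjamini-Hochberg adjustment. The script was tested on simulated data. Alternatives were other gene values, array weights, a variance trend, centring, quantile normalization, the replicate number as a block, other thresholds and arrays left out. Named genes were the sort genes, the 15 genes of each direction with the largest smallest difference among genes without array overlap (clone-like symbols passed over), and up to 4 called members of each list with the lowest p plus called members against the list's majority; further list members, markers and neighbours were named after their values were seen. Members and lists were chosen with earlier results of these data known. List genes without a value are not analysed here. Motifs were searched in 18109 RefSeq promoters (GRCm38.p6) of 14452 genes with a value, 690 of them DP-high and 644 DP-low.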

Additional observations from a re-analysis of the deposited data

Results flagged for a closer look

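Of the 108 named genes, 30 differed between CD4SP and CD8SP (limma, adjusted p under 0.05), which is also a difference between the distances of the 2 single-positive subsets from DP. CD4SP was above CD8SP for 17 and below for 13, and 12.7% of all genes were called. The 30 include the sort genes, whose difference was set by the gates. Most other named genes were chosen by results from these same arrays, so their share is not comparable with that of all genes. The values are CD4SP minus CD8SP on the log2 scale, over 3 arrays per subset.

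The sort genes differed by 8.26 (Cd4), -6.2 (Cd8a) and -4.83 (Cd8b1). Among DP-high genes, Plxnd1 (2.39), Trat1 (1.21), Spo11 (1), Bcl2l1 (0.881), Ets2 (0.731), Tnfaip3 (0.64) and Lig4 (0.578) were closer to DP in CD4SP, and Bmf (-0.525) was closer in CD8SP. Among DP-low genes, Itgb3 (2.82), Ccr8 (2.33), Itm2a (2.23), Gpr183 (1.65), Il7r (1.21), Samhd1 (0.929), Bach2 (0.694), Pkm (0.479) and Slc36a4 (0.293) were higher in CD4SP. Itgae (-5.93), Cxcr6 (-3.27), Calhm6 (-1.31), Il2rb (-1.29), Runx3 (-0.834), Gbp3 (-0.812), Ahnak (-0.658), Pgam1 (-0.439), Slc7a5 (-0.439) and Nr4a2 (-0.371) were higher in CD8SP. For Il7r the adjusted p was 0.0499. Groups of 3 arrays were not tested for outlying samples.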

How the results depend on the processing

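Without 1 array the DP-high count was 554 (without DP replicate 3) to 935 and the DP-low count 613 to 928; against the average of the others 2701 to 3599 genes were higher and 2754 to 3700 lower. Taking for each gene its highest probe set by mean, 471 genes were DP-high and 2218 higher against the average; 456 of the 836 DP-high genes kept the call. Choosing the highest mean takes, of a gene's probe sets, the one on which the other subsets lie highest relative to DP. Quantile normalization left 273 DP-high and 181 DP-low genes, 1632 and 1431 called against the average, 569 called genes that differed between DN and single-positive cells and 9 named genes that differed between CD4SP and CD8SP. It gives all 12 arrays 1 distribution, while the spread over genes (SD) was 0.188 to 0.208 on the DP arrays and 0.667 to 0.83 on the others. Since the DP mean was subtracted, the DP arrays hold only deviations from it, which this step stretches. Calls lost under it cannot be read as instability alone. At an adjusted p under 0.01 there were 507 and 486 DP-high and DP-low genes, with a smallest difference of at least 1 there were 184 and 232, and with the average called and 3 equal signs 2777 and 2740. Of 2415 values of 105 called named genes over 23 settings, 2259 kept call and direction, 151 lost the call and 5 reversed, and 52 genes kept the call in all settings. Bmf was at -0.0183 by either choice of a single probe set, and by the probe set of smallest spread Fosl2 was at 0.115, Tnfrsf9 at 0.608 and Ahnak at 0.0576; probe sets of these genes differ in direction.

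With the replicate number as a block (the replicate block), 962 genes were DP-high and 909 DP-low. The numbers were not taken to pair the arrays, since not every same-numbered pair correlated by over 0.1 in its residuals. Residuals of arrays numbered 1 correlated by 0.106 to 0.156 between subsets, those numbered 2 by -0.025 to 0.0884, those numbered 3 by 0.0214 to 0.139 and those of different numbers by -0.162 to 0.0797. As all 6 pairs of arrays numbered 1 deviated together, a fit with an indicator for them was run, which gave 1050 DP-high and 980 DP-low genes.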

Other observations

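Some called genes lay beside each other in the genome. In the order of RefSeq's gene table and among genes with a value, 143 of 834 placed DP-high genes (17.15%) had a DP-high gene next to them, as did 1601 of all 18142 placed genes (8.825%). For DP-low genes the numbers were 103 of 798 (12.91%) against 1556 of all (8.577%). DP-high runs with named genes held Tctex1d1, BB031773, Insl5, Wdr78, Mier1 and Slc35d1, with smallest differences of 2.93, 3.86, 3.27, 1.82, 1.20 and 0.81, Iftap, Rag2, Rag1 and Traf6, with 1.20, 2.14, 1.23 and 0.41, and Agfg2, Gm15498, Nyap1 and Tsc22d4, with 1.73, 1.63, 2.81 and 0.46. Chrna9 followed N4bp2 (0.36) and Rhoh (0.71), and Ccdc153 followed Mcam (0.68) and Cbl (1.35), a ubiquitin ligase of T cell receptor signalling. Trat1 lay beside Morc1 (2.61). DP-low neighbours were Btla (-2.28) and Cd200 (-2.82), Gpr18 (-2.42) and Gpr183 (-1.69), Il18r1 (-2.08) and Il18rap (-0.76), Myc (-2.19) and Pvt1 (-0.82), and Nme2 (-0.91) and Nme1 (-0.82). Overlapping transcripts and probe sets that read both genes of a pair were not tested.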
